A study of Mus musculus with 18 samples.

Results

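The response of the mouse uterus to estradiol (E2) was measured in 3 RNA sequencing libraries of E2-treated animals and 3 libraries of animals given oil (OIL), which are 6 of the 18 libraries of the series. All libraries came from homogenates of whole uterus of ovariectomized adult CD-1 mice, an outbred stock, and both of these groups had also received phosphate-buffered saline (PBS), the vehicle used in place of doxorubicin (DOX), a topoisomerase II poison used against tumours. The groups are written PBS E2 and PBS OIL. Set beside them were the 3 libraries of progesterone-treated animals without DOX (PBS P4) and the 3 E2 and 3 OIL libraries of animals given DOX (DOX E2 and DOX OIL). The labels give no dose and no time of collection, and they do not state that the libraries of a group come from separate animals, so the p-values speak only of the spread among libraries, part of which may be technical.

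Estradiol acts on the uterus mainly through estrogen receptor alpha, a nuclear receptor encoded by Esr1 that binds palindromic response elements in DNA and also acts through AP-1 and Sp1 factors. Ovariectomy removes the ovarian hormones and leaves a small, quiescent uterus. Estradiol given to such an animal brings water uptake and increased blood flow first, then growth of the tissue and DNA synthesis in the luminal and glandular epithelium, with growth factors such as IGF-1 passing from stroma to epithelium.

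The 3 PBS E2 libraries held 39783785, 18690495 and 20185638 counts and the 3 PBS OIL libraries held 20878790, 19953103 and 20069808. Smooth muscle and stroma, the bulk of a uterus, were well represented, with Acta2 (smooth muscle actin) at 3171, 2950.0 and 3184 CPM (counts scaled to a common library size) in PBS E2, against 2268, 2295 and 2630.0 CPM in PBS OIL, and the stromal proteoglycan Dcn at 2431, 3153 and 3806 CPM, against 2239, 3269 and 3901. The epithelial adhesion gene Epcam was at 97.7, 114 and 77 CPM in PBS E2, against 175, 94.2 and 112 in PBS OIL, and without PBS OIL replicate 2 it was called lower (log2 fold change -0.58). A few libraries stood apart in marker genes of other cells. The summed level of 22 adipocyte genes was 10195.1, 1404.2 and 2912.7 CPM in PBS E2, against 1603.6, 5069.3 and 2808.4 CPM in PBS OIL. The sum of 16 macrophage genes was 604.4, 622.6 and 642.3 CPM in PBS E2, against 500.0, 2051.8 and 707.3 CPM in PBS OIL. PBS E2 replicate 1 was the highest in fat genes and PBS OIL replicate 2 in macrophage genes, and their part in the results below was not tested beyond the values given without them. In whole tissue, fewer cells of a type and less RNA per cell cannot be told apart.

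Most expressed genes differed between the groups. Of 15494 genes tested, 9519 passed an adjusted p of 0.05 (61.4%), with 4583 higher under E2 (29.6%) and 4936 lower (31.9%). At least 2-fold changes were found in 1570 higher genes (10.1%) and 2135 lower genes (13.8%), and at least 8-fold changes in 137 higher and 71 lower genes. The genes called higher took 49.0% to 54.5% of all counts in the PBS E2 libraries, against 31.1% to 32.7% in the PBS OIL libraries, and the genes called lower took 16.6% to 20.8%, against 32.7% to 35.7%. For 94.8% of the genes called higher and 92.1% of those called lower the values of the 3 PBS E2 libraries and the 3 PBS OIL libraries did not overlap, compared with 13% of the genes not called. The calls were made from these same libraries, so this contrast is no independent support for them. Values are relative to the library as a whole. The share of higher genes among those called was 48.1%, and it was 36.0% when libraries were scaled by their totals alone and 35.3% with upper quartile scaling, which moved the median of all genes by -0.186 and -0.196 on the log2 scale. The median log2 fold change of all genes tested was -0.093, and the lists below are to be read against it and against the shares just given.

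The gene of the estrogen receptor was not called, while that of the progesterone receptor rose. Esr1 had 507, 802 and 777 CPM in PBS E2, against 597, 517 and 678 CPM in PBS OIL, a log2 fold change of 0.22 ± 0.15 (SE, n = 3 per group, as for all fold changes below) that was not called (adjusted p = 0.22). The groups overlapped, and without PBS E2 replicate 1, the lowest library, the fold change was 0.41 and called. The progesterone receptor gene Pgr, a direct target of the estrogen receptor, had 346, 271 and 414 CPM in PBS E2, against 45.4, 39.6 and 67.5 CPM in PBS OIL. All PBS E2 libraries lay above all PBS OIL libraries, by a log2 fold change of 2.76 ± 0.21 (adjusted p = 3.25e-08). Among the 24 receptors and coregulators measured, 9 were higher and 9 lower, with a median of -0.03. Nrip1, a corepressor of the estrogen receptor, rose by 1.61 ± 0.17 and Fkbp5, an immunophilin of steroid receptor complexes, by 1.45 ± 0.19. The membrane progesterone-binding protein Pgrmc1 fell by 0.74 ± 0.11 and the orphan receptor of uterine stroma Nr2f2 by 0.95 ± 0.15. The coactivators Ncoa2 and Ncoa3 fell by 0.58 ± 0.13 and 0.28 ± 0.07.

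Most genes known to be induced by estrogen in the uterus were higher. Of 46 tested, 33 were higher and 0 lower, with a median log2 fold change of 2.01. The list was assembled from knowledge of the uterus with earlier results of these data known, so its direction is not independent evidence. Inhbb, the beta B subunit of activin and inhibin, had 1393, 948 and 1124 CPM in PBS E2, against 30.8, 30.3 and 32.6 CPM in PBS OIL. Igf1, the growth factor, had 621, 395 and 590.1 CPM in PBS E2, against 54.2, 93.9 and 69.1, and Greb1, a cofactor of the estrogen receptor, had 402, 234 and 291 CPM, against 57.5, 36.7 and 42. For each of these the lowest PBS E2 library stood far above the highest PBS OIL library. The log2 fold changes were 5.21 ± 0.29 for Inhbb (adjusted p = 4.52e-09), 2.89 ± 0.23 for Igf1 and 2.77 ± 0.19 for Greb1. Ramp3, which turns the calcitonin receptor-like receptor into an adrenomedullin receptor, rose by 4.40 ± 0.31, Stat3, a transcription factor of cytokine signalling, by 2.21 ± 0.13, Wnt4, a Wnt ligand of the endometrium, by 2.21 ± 0.32, and the water channel Aqp5 by 2.69 ± 0.41. The antimicrobial lipocalin Lcn2 had 144, 68.2 and 70.7 CPM in PBS E2, against 40.3, 36.7 and 21.1 CPM in PBS OIL, a rise of 1.53 ± 0.34 in which the groups did not overlap.

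Some well known genes of the hormone-treated uterus did not pass the test. Ltf, which encodes lactoferrin, the major estrogen-induced secretion of the mouse uterine epithelium, had 229.6, 579 and 321 CPM in PBS E2, against 322, 396 and 239 CPM in PBS OIL. Complement C3 had 957, 454 and 676 CPM in PBS E2, against 222, 761 and 445 CPM. The libraries of both groups interleaved for these genes, and neither was called (log2 fold changes 0.24 ± 0.73 and 0.55 ± 0.49, adjusted p = 0.79 and 0.35). For Ltf the sign turned without PBS E2 replicate 2, to -0.21. Areg, encoding the EGF family ligand amphiregulin, was at or near 0 counts in both groups. Ihh, the hedgehog ligand of the epithelium, had 7.66, 22.5 and 12.8 CPM in PBS E2, against 16, 9.01 and 17.1 CPM in PBS OIL, and was not called. Igfbp3, an IGF-binding protein, was at 328, 329.5 and 514 CPM, against 442, 416 and 661, and was also not called (log2 fold change -0.38 ± 0.27).

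**Figure D1:**
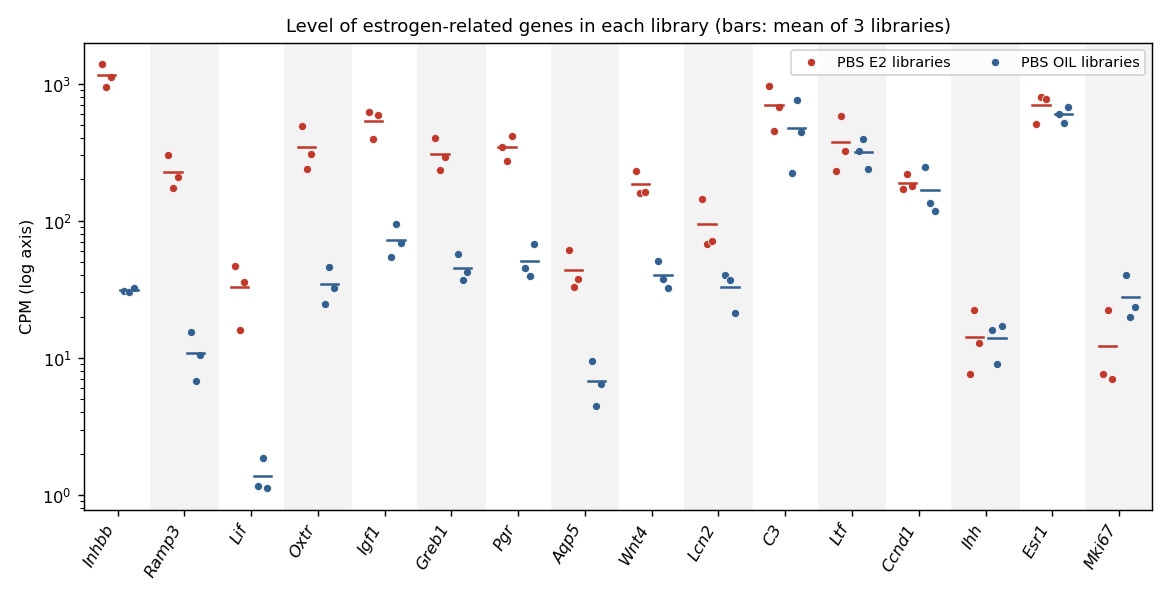
Expression of 16 genes in each library (log scale, CPM), with PBS E2 libraries left of PBS OIL libraries in each panel. Inhbb, Pgr, Igf1 and Greb1 separate the groups completely, while Ltf, C3 and Esr1 overlap; Lif was added to the plot after its values were seen.

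The genes with the largest rises included a cluster of hair keratins. Krt83 had 4523 counts summed over the 3 PBS E2 libraries and 1 count in the PBS OIL libraries, a ratio of 4030 after scaling (exact 95% interval 723 to 159000, counting error only). Krt81 had 1026 counts in PBS E2 and 0 in PBS OIL, and was at least 305-fold higher against a floor of 3 counts over the group. Krt86 had 772 counts against 2, a ratio of 344 (94.9 to 2840). These genes of hard keratins of hair and nail lie side by side on chromosome 15 of build GRCm38, Krt81 at chr15:101459061-101463751, Krt86 at chr15:101473478-101479986 and Krt83 at chr15:101485130-101491512. Hair keratin genes are closely similar in sequence, so reads may have been divided between them in ways the table does not show, and each single value is uncertain. Fitted log2 fold changes of these genes, also those without single PBS OIL libraries, depend on the prior count and are not given.

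The other large rises were in genes of signalling, matrix and water transport. Ptpn5, a tyrosine phosphatase best known from neurons, had 307, 194 and 274 CPM in PBS E2, against 2.14, 2.41 and 1.49 CPM in PBS OIL. Ngfr, the low-affinity neurotrophin receptor p75, had 406, 371 and 531 CPM, against 2.18, 2.88 and 7.5, and Gadd45g, a stress sensor that binds p38 kinase activators and cell cycle proteins, had 955, 572 and 696 CPM, against 20.1, 19.7 and 12.5. None of these overlapped between groups, and their log2 fold changes were 7.0 ± 0.50, 6.70 ± 0.50 (7.43 without PBS OIL replicate 3) and 5.41 ± 0.39. The hyaluronan synthase Has1 rose by 7.02 ± 0.64 and the aggrecanase Adamts4 by 6.25 ± 0.78 (6.88 without PBS OIL replicate 2). The water channel Aqp8 rose by 7.14 ± 0.60 (7.82 without PBS OIL replicate 3) and Lrtm2, a leucine-rich repeat protein, by 5.28 ± 0.39. Aqp8 was near 0 in PBS OIL, with 5 counts over the 3 libraries, against 940 in PBS E2. Its ratio after scaling was 167 (exact 95% interval 71.5 to 517, counting error only). Of 23 water channel and ion transport genes, 6 were higher, 5 lower and 12 not called (47.8% called), with a median of -0.01. The more abundant water channel Aqp1 fell by 0.66 ± 0.18, from a mean of 568.3 CPM in PBS OIL to 358.8 CPM in PBS E2.

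The largest falls were in Vwa3b, Edar, Pik3ip1, Bmf, Atp6v0d2, Rsad2, Gpnmb, Tbx6, Ndp, Lrrc31, Trim63 and Fn3k. Edar, the ectodysplasin receptor of skin appendages, had 0.139, 0.217 and 0.21 CPM in PBS E2, against 8.25, 4.83 and 4.05 CPM in PBS OIL, and fell by 4.94 ± 0.42. Ndp, encoding the Norrin ligand of Frizzled-4, fell by 3.37 ± 0.40, the T-box factor Tbx6 by 3.53 ± 0.37 and the kinase of glycated proteins Fn3k by 3.26 ± 0.32. A few of these depended on a single PBS OIL library, to different degrees. Vwa3b was at 171, 4.13 and 2.56 CPM in PBS OIL and its log2 fold change of -5.97 became -1.83 without replicate 1. Trim63, a muscle ubiquitin ligase, moved less, from -3.27 to -2.59. Gpnmb and Atp6v0d2, genes of lipid-laden macrophages and osteoclasts, were highest in PBS OIL replicate 2, the library with the high macrophage sum, and their log2 fold changes of -3.63 and -3.76 became -0.84 and -1.02 without it, the second no longer called (adjusted p = 0.14). Lrrc31 stood at -3.33, and at -4.01 without PBS E2 replicate 2.

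Immediate early transcription factors were high in the E2 libraries. Of 20 AP-1, EGR and related factors tested, 16 were higher and 1 lower, with a median log2 fold change of 2.44. Fosl2 and Junb, both AP-1 subunits, had 601, 393 and 596 and 306, 243 and 327 CPM in PBS E2, against 92.5, 107 and 87.5 and 45.1, 40.2 and 24.2 CPM in PBS OIL. The zinc finger factor Egr1 had 444, 432 and 657 CPM in PBS E2, against 73.8, 79 and 66.8 CPM in PBS OIL. All 3 were separated between the groups, with log2 fold changes of 2.47 ± 0.17, 3.0 ± 0.30 and 2.80 ± 0.54. Fos itself rose by 2.71 ± 0.65, Nr4a1, an orphan nuclear receptor, by 3.15 ± 0.83, Ier2 and Ier3 by 2.41 ± 0.24 and 2.56 ± 0.20, Klf4 by 2.09 ± 0.18 and the growth regulator Myc by 1.62 ± 0.19. Fosl1 rose by 5.56 ± 0.92 from a mean of only 0.154 CPM in PBS OIL, and by 7.20 without PBS OIL replicate 2. Jun moved the other way, at 153, 178 and 189.9 CPM in PBS E2, against 321, 291 and 216 CPM in PBS OIL (-0.67 ± 0.17). Atf3, a stress-induced member of the family, had 83.2, 54.4 and 92.2 CPM, against 119.6, 112 and 40.0, and was not called.

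**Figure D2:**
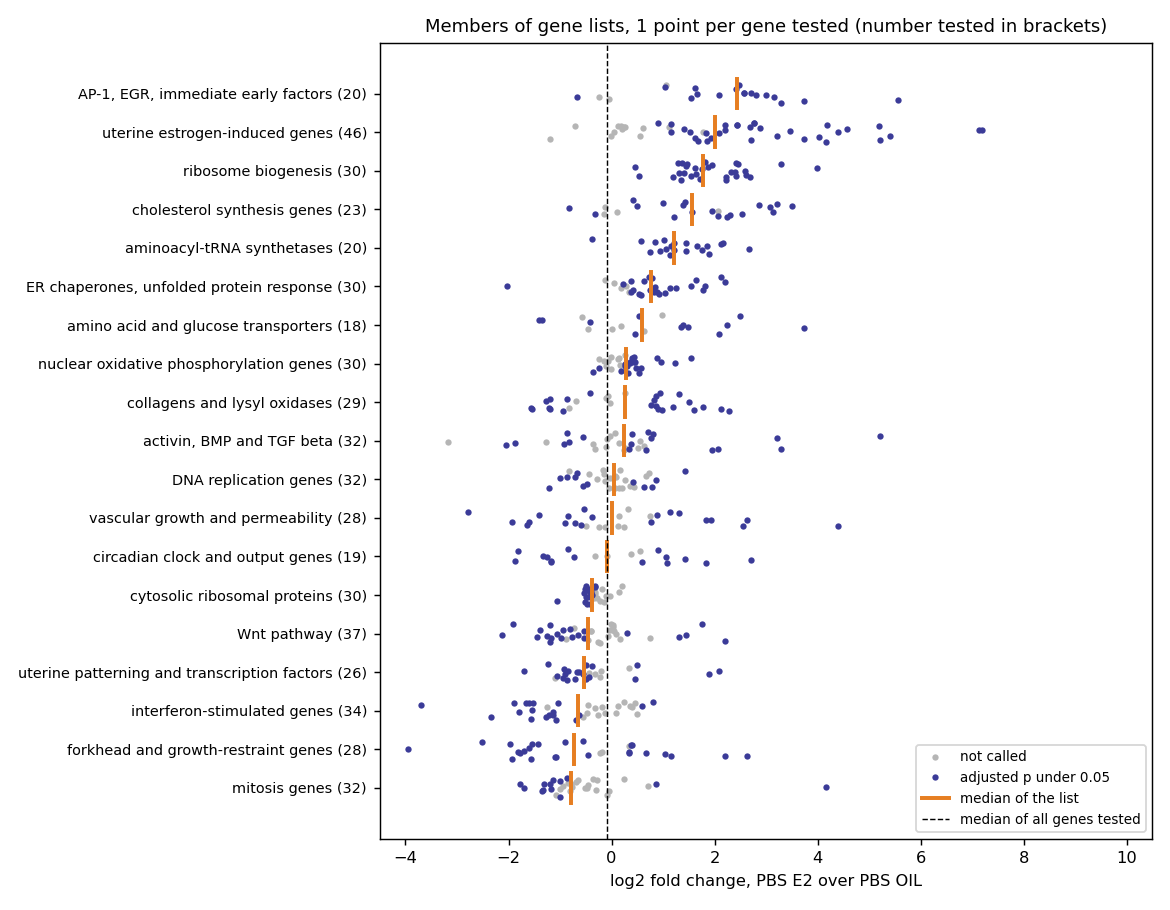
Log2 fold change (PBS E2 over PBS OIL) of every tested member of 19 gene lists, 1 point per gene, with the median of each list as a bar and the median of all genes as a dashed line. Immediate early factors, estrogen-induced genes, ribosome biogenesis, cholesterol synthesis and tRNA synthetases lie to the right, and mitosis, forkhead and interferon genes to the left.

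Genes that build ribosomes and charge tRNA rose almost without exception. All 30 ribosome biogenesis genes tested were higher, with a median of 1.78, and they were all called in each fit that left out 1 of the 6 libraries. Rrp12, a factor of ribosomal subunit export, had 203, 129 and 155 CPM in PBS E2, against 10.7, 11 and 9.18 CPM in PBS OIL. Ddx21, a nucleolar RNA helicase, had 685, 496 and 632 CPM, against 53.5, 66.4 and 65.5. The groups were far apart for both, with log2 fold changes of 3.98 ± 0.25 and 3.29 ± 0.20, and Pno1 and Wdr43, processing factors of the small subunit, rose by 2.62 ± 0.15 and 2.21 ± 0.12. The sum over the list was 8547.2, 6582.3 and 7141.2 CPM in PBS E2, against 2463.2, 2104.4 and 2443.9 CPM in PBS OIL. Of the 20 cytosolic aminoacyl-tRNA synthetases, 19 were higher and 1 lower, with a median of 1.21. The alanine enzyme Aars had 525, 264 and 287 CPM in PBS E2, against 54.5, 60.9 and 54.8 CPM in PBS OIL, and rose by 2.66 ± 0.20, followed by Tars, Mars and Rars at 2.16 ± 0.17, 1.45 ± 0.11 and 1.44 ± 0.11. The glutamine enzyme Qars was the member that fell, by 0.38 ± 0.08.

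Genes of the ribosomal proteins themselves did not follow. Of 30 tested, 0 were higher and 18 lower, with a median of -0.38. Rpl3 had 898, 924 and 871 CPM in PBS E2, against 1554, 1037 and 1295 CPM in PBS OIL, and Rpl30 had 281, 291 and 259.6 CPM, against 809.7, 415 and 504. The groups did not overlap, but PBS OIL replicate 1 was the highest library in each case, and the log2 fold changes were -0.53 ± 0.12 and -1.06 ± 0.21. Without that library 2 members were called higher and 6 lower, with a median of -0.15. The sum over the list was 25938.8, 25879.7 and 24930.3 CPM in PBS E2, against 41785.8, 25756.8 and 31303.5 CPM in PBS OIL.

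The folding and secretion machinery of the endoplasmic reticulum (ER) rose as well. Of 30 chaperone and unfolded protein response genes, 24 were higher and 1 lower, with a median of 0.76. Atf4, the translation-controlled regulator of amino acid and stress genes, had 779, 500.2 and 525 CPM in PBS E2, against 155, 126 and 111 CPM in PBS OIL, a log2 fold change of 2.2 ± 0.16. Hyou1, an ER chaperone, had 340.3, 244 and 253 CPM, against 60.7, 71.5 and 60.5, and rose by 2.12 ± 0.20. All PBS E2 libraries were above all PBS OIL libraries for both. The chaperone Dnajb11 and the translocon subunit Sec61a1 rose by 1.54 ± 0.16 and 1.24 ± 0.10. Derl3, a degradation factor that is also a marker of plasma cells, was the member that fell, by 2.03 ± 0.34. The summed level of 13 B and plasma cell genes was 140.8, 167.8 and 211.3 CPM in PBS E2, against 403.6, 256.9 and 119.5 CPM in PBS OIL, and its part in the fall of Derl3 was not tested.

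**Figure D3:**
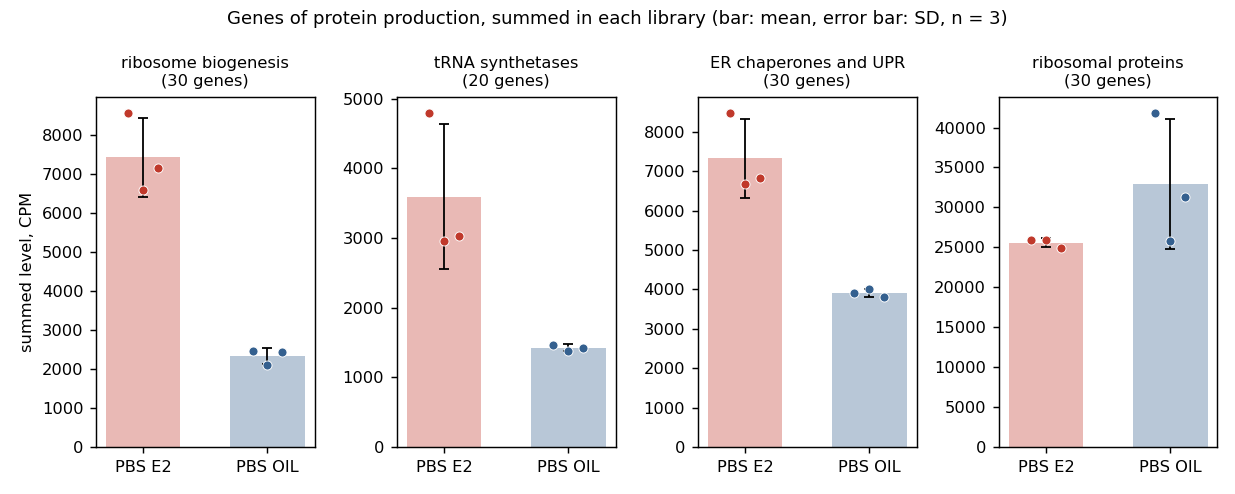
Summed expression (CPM) of ribosome biogenesis, aminoacyl-tRNA synthetase, ER chaperone and ribosomal protein genes, as bars of the mean with SD over 3 libraries and 1 point per library, PBS E2 left of PBS OIL. The first 3 sums are higher in every PBS E2 library, and the ribosomal protein sum is not.

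Many ER chaperone genes carry the ER stress element, a motif read by the factors ATF6 and NF-Y. Promoter sequences of RefSeq (GRCm38.p6, from 250 bases before to 50 after a gene's start) were available for 10677 of the tested genes. The letters CCAAT followed after 9 bases of any kind by CCACG, on either strand, occurred in 9 of the 25 ER genes with a sequence (36.0%) and in 20 of all 10677 (0.187%). The 9 genes with a match had a median log2 fold change of 0.84, 8 higher and 1 lower, and the 16 without had 11 higher, 0 lower and a median of 0.48. The element overlaps the CCAAT box by construction. Promoters of 4 genes are shown, from 200 bases to 1 base before the start on the strand of the gene, with the element in capitals, because they hold the same letters while the genes differ in their response. Hspa5, Hsp90b1 and Creld2 were chosen after their values were seen.
Hspa5 (chr2:34771890-34772089, plus strand): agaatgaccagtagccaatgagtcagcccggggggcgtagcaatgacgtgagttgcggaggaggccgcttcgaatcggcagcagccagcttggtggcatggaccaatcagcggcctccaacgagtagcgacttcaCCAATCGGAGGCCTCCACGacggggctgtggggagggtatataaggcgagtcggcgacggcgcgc
Creld2 (chr15:88819446-88819645, plus strand): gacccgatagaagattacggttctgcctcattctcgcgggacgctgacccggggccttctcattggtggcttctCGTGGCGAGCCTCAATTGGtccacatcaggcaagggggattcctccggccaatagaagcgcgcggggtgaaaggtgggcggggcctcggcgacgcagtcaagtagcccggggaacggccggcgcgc
Hsp90b1 (chr10:86705445-86705644, minus strand): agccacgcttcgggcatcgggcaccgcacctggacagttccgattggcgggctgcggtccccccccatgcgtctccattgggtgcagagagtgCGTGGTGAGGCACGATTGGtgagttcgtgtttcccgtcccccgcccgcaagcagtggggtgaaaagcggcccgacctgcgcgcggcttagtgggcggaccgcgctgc
Derl3 (chr10:75893198-75893397, plus strand): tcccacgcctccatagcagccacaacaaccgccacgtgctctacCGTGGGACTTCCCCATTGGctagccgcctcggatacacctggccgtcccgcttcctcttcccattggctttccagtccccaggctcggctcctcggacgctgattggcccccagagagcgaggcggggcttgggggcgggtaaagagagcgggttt
The major ER chaperone BiP, encoded by Hspa5, had 1126, 775 and 828 CPM in PBS E2, against 254, 275 and 245 CPM in PBS OIL (1.82 ± 0.21), and Creld2 rose by 1.64 ± 0.19. Hsp90b1, which encodes GRP94, had 626, 537 and 505 CPM, against 363, 390.2 and 372 (0.57 ± 0.12), and Derl3 had 2.37, 4.07 and 3.46 CPM, against 21.1, 12.3 and 6.85.

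Genes of cholesterol synthesis were higher along most of the pathway. Of 23 genes tested, 17 were higher and 2 lower, with a median of 1.56. Idi1, isopentenyl diphosphate isomerase, had 118, 81.2 and 117 CPM in PBS E2, against 8.51, 10.2 and 9.23 CPM in PBS OIL, and Cyp51, lanosterol demethylase, had 189, 124 and 146 CPM, against 17.7, 17.1 and 17.4. The lowest PBS E2 library was far above the highest PBS OIL library for both, and the log2 fold changes were 3.5 ± 0.19 and 3.14 ± 0.18. Squalene epoxidase Sqle rose by 3.07 ± 0.21, the methylsterol oxidase Sc4mol by 2.30 ± 0.14 and the sterol sensor Insig1 by 2.07 ± 0.17. Tm7sf2 and Ebp, late enzymes of the pathway, fell by 0.83 ± 0.19 and 0.32 ± 0.09. Without PBS E2 replicate 1, the library with the high adipocyte sum, 17 members were called higher and 2 lower. The CCAAT box, bound by NF-Y, was found on either strand in the promoters of all 14 members with a sequence. Its share was 42.8% of all tested genes, 40.5% of those at least 2-fold higher and 45.6% of those at least 2-fold lower. It was also in 88.0% of the ER genes, more often higher, and in 76.9% of the mitosis genes, more often lower. The box is shown in capitals for the most induced enzymes.
Idi1 (chr13:8885406-8885605, plus strand): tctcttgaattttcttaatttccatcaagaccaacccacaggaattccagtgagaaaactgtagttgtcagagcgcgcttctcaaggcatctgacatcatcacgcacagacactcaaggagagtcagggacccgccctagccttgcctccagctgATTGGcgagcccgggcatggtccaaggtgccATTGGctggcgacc
Cyp51 (chr5:4104698-4104897, minus strand): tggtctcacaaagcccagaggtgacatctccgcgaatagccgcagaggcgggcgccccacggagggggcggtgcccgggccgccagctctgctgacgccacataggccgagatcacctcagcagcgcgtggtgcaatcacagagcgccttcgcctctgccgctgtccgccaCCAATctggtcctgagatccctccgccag

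Nutrient uptake and energy metabolism changed member by member. Of 18 amino acid and glucose transporters, 9 were higher and 3 lower, with a median of 0.59. Slc7a5, the light chain of the large neutral amino acid transporter LAT1, had 508, 323 and 285 CPM in PBS E2, against 30.8, 24.6 and 28.7 CPM in PBS OIL, with no overlap (3.73 ± 0.18, adjusted p = 2.62e-09). Its partner Slc3a2 rose by 1.35 ± 0.17, the arginine and lysine carrier Slc7a1 by 2.48 ± 0.21 and the lactate carrier Slc16a1 by 2.08 ± 0.19, while the taurine transporter Slc6a6 fell by 1.4 ± 0.12. Of 25 glycolysis and hypoxia genes, 12 were higher and 5 lower. Hexokinase Hk2 and lactate dehydrogenase Ldha rose by 2.21 ± 0.26 and 1.67 ± 0.15, and Pdk1, which restrains pyruvate oxidation, fell by 1.78 ± 0.17. Of 30 nuclear genes of oxidative phosphorylation, 18 were higher and 2 lower with a median of 0.29, and with scaling by library totals 11 were higher and 7 lower. Cyc1 and Cox5a, subunits of complexes III and IV, rose by 0.96 ± 0.09 and 1.55 ± 0.16. None of the 13 mitochondrially encoded genes was called. In redox defence 12 of 23 genes were higher, among them thioredoxin reductase Txnrd1 (1.41 ± 0.11), mitochondrial superoxide dismutase Sod2 (0.85 ± 0.08) and metallothionein Mt2 (1.68 ± 0.22), and with scaling by library totals 8 were.

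Genes of mitosis were called less often than all genes tested, and the called ones were more often lower than higher. Of 32 mitosis genes, 2 were higher, 11 lower and 19 not called, with a median of -0.79. The share called was 40.6%, against 61.4% of all genes tested, of which 29.6% were higher and 31.9% lower. Mki67, the proliferation marker Ki-67, had 7.6, 22.2 and 7.07 CPM in PBS E2, against 39.9, 19.97 and 23.4 CPM in PBS OIL. PBS E2 replicates 1 and 3 were below all PBS OIL libraries and replicate 2 lay among them, so the groups overlapped, and the log2 fold change of -1.19 ± 0.45 was near the threshold (adjusted p = 0.032). It was -0.92 and not called without PBS E2 replicate 1 or 3, -0.83 and not called without PBS OIL replicate 1, and -1.91 without PBS E2 replicate 2. The count of lower mitosis genes moved in the same way, to 5 without PBS E2 replicate 1, 20 without replicate 2, 6 without replicate 3 and 5 without PBS OIL replicate 1. Cenpa, the centromeric histone, and the spindle proteins Cenpe and Nusap1 fell by 1.70 ± 0.32, 1.33 ± 0.32 and 1.35 ± 0.37. The exception in size was Mad2l1, a spindle checkpoint gene, with 380.2, 70.1 and 139 CPM in PBS E2, against 12.4, 9.43 and 11.1 CPM in PBS OIL (4.16 ± 0.47, or 3.25 without PBS E2 replicate 1), and Foxm1, a regulator of mitotic genes, rose by 0.86 ± 0.23. Mitotic promoters share the cell cycle genes homology region (CHR), read by the DREAM complex and B-MYB. The letters TTTGAA or TTCGAA, on either strand, were in 20 of the 26 mitosis genes with a sequence (76.9%) and in 16.5% of all tested genes. Among the 20 with a match 0 were higher and 8 lower, with a median of -0.86. The 6 without had 1 higher, which was Mad2l1, and 2 lower, with a median of -0.61. The promoter of Mki67 is shown with its matches in capitals.
Mki67 (chr7:135716380-135716579, minus strand): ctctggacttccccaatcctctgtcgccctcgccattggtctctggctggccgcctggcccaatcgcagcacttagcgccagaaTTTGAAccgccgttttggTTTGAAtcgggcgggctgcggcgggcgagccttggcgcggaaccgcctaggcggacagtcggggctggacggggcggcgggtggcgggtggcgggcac

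Regulators of entry into the cell cycle were called less often than all genes tested, and in both directions. Of 32 DNA replication genes, 5 were higher, 7 lower and 20 not called (37.5% called, against 61.4% of all genes tested). Their median was 0.04 and turned to -0.14 with scaling by library totals. The sliding clamp Pcna had 147, 113 and 133 CPM in PBS E2, against 51.3, 50.8 and 44.3 CPM in PBS OIL (1.43 ± 0.12), and the helicase subunit Mcm4 rose by 0.87 ± 0.12, while its partner Mcm7 fell by 0.86 ± 0.18. The counts of the list were 4 and 4 without PBS E2 replicate 1, 3 and 9 without replicate 2, 6 and 4 without PBS OIL replicate 1, and 3 and 7 without PBS OIL replicate 2. Among G1 regulators, 5 of 24 were higher, 8 lower and 11 not called (54.2% called). Cdkn1a, the inhibitor p21, had 166, 89.6 and 102 CPM in PBS E2, against 19.5, 30.1 and 16.6 CPM in PBS OIL, a rise of 2.44 ± 0.35, and Cdkn1b, the inhibitor p27, had 50.5, 76.9 and 64.3 CPM, against 155, 187 and 199, and fell by 1.5 ± 0.13. The groups were apart for both inhibitors, which moved in opposite directions. Cdk4 and Ccnd2 rose by 0.76 ± 0.11 and 0.89 ± 0.14, and the pocket protein Rbl2 and the inhibitor Cdkn1c fell by 1.09 ± 0.16 and 0.95 ± 0.15. Ccnd1, cyclin D1, was at 169.7, 219 and 181 CPM in PBS E2, against 248, 135 and 119 CPM in PBS OIL, and was not called (0.18 ± 0.26). Without PBS OIL replicate 1 it was called, at 0.58.

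Genes that restrain growth, many of them targets of FOXO factors, were more often lower than higher. Of 28 tested, 16 were lower and 9 higher, with a median of -0.73, and with scaling by library totals 17 were lower and 5 higher. Pik3ip1, which inhibits PI3 kinase, had 8.13, 14.2 and 8.33 CPM in PBS E2, against 188, 132 and 148 CPM in PBS OIL. Sesn1, a sestrin that restrains mTORC1, had 17.1, 23.1 and 18.3 CPM, against 106, 109 and 118, and Txnip, an inhibitor of thioredoxin and of glucose uptake, had 629, 505 and 421 CPM, against 1547, 2137 and 2389. The highest PBS E2 library was well below the lowest PBS OIL library for each, and the falls were 3.94 ± 0.28, 2.51 ± 0.15 and 1.97 ± 0.23. Ccng2, an atypical cyclin of quiescent cells, fell by 1.93 ± 0.17, Irs2, the insulin receptor substrate, by 1.78 ± 0.18, the glucocorticoid-responsive factor Klf15 by 1.69 ± 0.22 and Tsc1, a subunit of the complex that inhibits mTORC1, by 0.90 ± 0.07. The members that rose include stress genes, with Gadd45a at 2.64 ± 0.28 and the sestrin Sesn2, a target of ATF4, at 2.21 ± 0.34. Foxo1 had 158, 120.5 and 151 CPM in PBS E2, against 105, 118 and 119 CPM in PBS OIL, a log2 fold change of 0.33 ± 0.12 (adjusted p = 0.022) that was not called without PBS E2 replicate 1 (0.26), PBS E2 replicate 3 (0.29) or PBS OIL replicate 1 (0.28).

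Apoptosis genes were counted in both directions, more often lower. Of 28 tested, 13 were lower and 7 higher, with a median of -0.34. Bmf, a BH3-only killer protein, had 6.35, 10.8 and 6.44 CPM in PBS E2, against 122, 112 and 107 CPM in PBS OIL, and its groups were far apart (-3.86 ± 0.26, adjusted p = 1.52e-08). Bcl2l11, encoding the BH3-only protein BIM, fell by 1.10 ± 0.13, but so did the inhibitor of apoptosis Birc2, by 0.81 ± 0.07. The survival genes Mcl1 and Bcl2l1 rose by 0.59 ± 0.10 and 0.74 ± 0.10, as did the death effectors Bax and Tnfrsf10b, by 0.90 ± 0.13 and 0.95 ± 0.12.

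**Figure D4:**
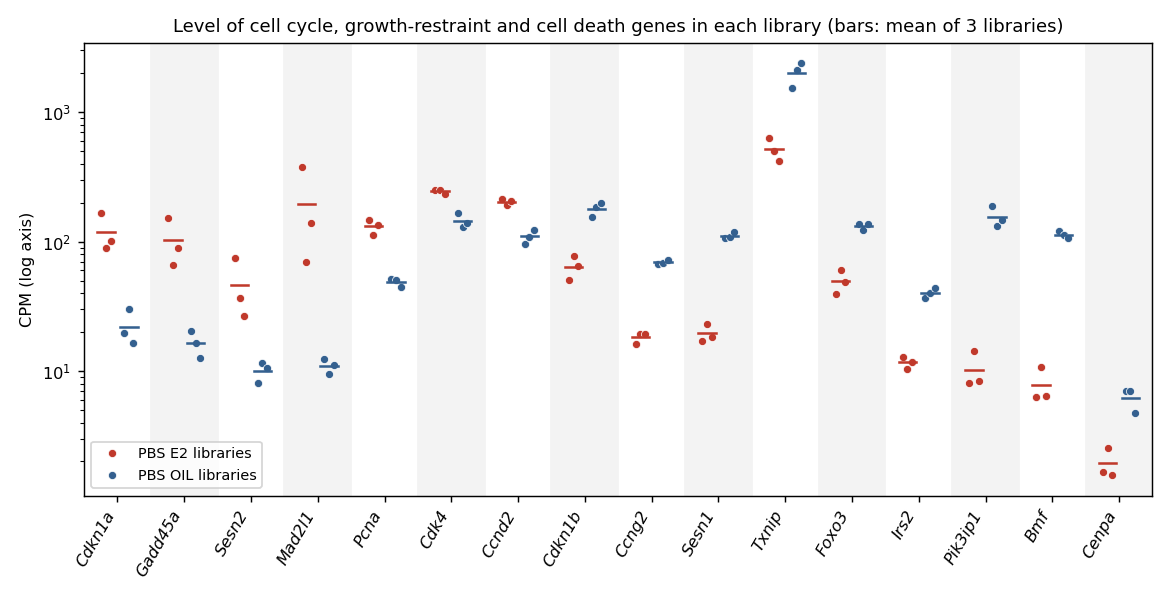
Expression of 16 genes of growth restraint, cell cycle and apoptosis in each library (log scale, CPM), PBS E2 left of PBS OIL. Pik3ip1, Bmf, Sesn1, Txnip and Cdkn1b are lower in every PBS E2 library, and Cdkn1a is higher. Foxo3 was added to the plot after its values were seen.

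Genes of the epithelial barrier and of epithelial secretion changed unevenly. Of 23 keratin and cornified envelope genes, 8 were higher and 1 lower, with a median of 1.07, and without PBS E2 replicate 1 the counts were 5 and 1 and the median 0.20. Tgm1, the transglutaminase of the cornified envelope, had 24.4, 12 and 15.1 CPM in PBS E2, against 1.56, 2.74 and 1.91 CPM in PBS OIL, and rose by 3.06 ± 0.30. Krt7, a keratin of simple epithelium, rose by 1.35 ± 0.27. Krt4 and Sprr1a, genes of stratified epithelium, had 68.2, 3.36 and 13.2 and 17.9, 1.73 and 1.47 CPM in PBS E2, against 2.05, 1.11 and 0.606 and 0.0891, 0.0929 and 0.14 CPM in PBS OIL. Their values in PBS E2 replicate 1 were far above the rest, and the log2 fold changes of 4.5 ± 0.83 and 5.99 ± 1.3 became 2.71 and 3.84 without it. Of 21 epithelial serine proteases and inhibitors 9 were higher and 4 lower. The kallikrein Klk1 was at 11.9, 1.84 and 5.66 CPM in PBS E2, against 0.223, 0.65 and 0.326 CPM in PBS OIL (4.03 ± 0.61, or 3.22 without PBS E2 replicate 1), and Prss8, an activator of the sodium channel ENaC, fell by 1.11 ± 0.24. Kallikrein genes are near-identical copies, so reads may be divided between them. The epithelial mucin Muc1 rose by 0.91 ± 0.25, and the epithelial factors Elf3 and Sox9 by 1.89 ± 0.29 and 2.77 ± 0.43 (Sox9 by 3.46 without PBS OIL replicate 1), while the related factor Ehf fell by 1.24 ± 0.28. Of 20 general epithelial markers 5 were higher and 5 lower, and without PBS E2 replicate 3 or PBS OIL replicate 1 the lower count was 2. Their sum was 1325.6, 1218.0 and 910.1 CPM in PBS E2, against 1354.6, 835.8 and 1055.4 CPM in PBS OIL.

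Genes of hyaluronan turnover changed in both directions, and chains of type VI collagen rose. Has1 had 109, 46.2 and 72.8 CPM in PBS E2, against 0.49, 0.929 and 0.326 CPM in PBS OIL, while the synthase Has3 fell by 1.41 ± 0.23 and Has2 was not called. The hyaluronidases Hyal2 and Hyal1 rose by 1.24 ± 0.09 and 1.15 ± 0.14. Adamts1, a protease of the versican matrix, had 1102, 695 and 1175 CPM in PBS E2, against 64.4, 99.6 and 107 CPM in PBS OIL (3.46 ± 0.26), and Vcan, versican itself, fell by 0.93 ± 0.26. Over the 20 genes of this list 9 were higher and 3 lower, with a median of 0.37. Of 29 collagens and processing enzymes 14 were higher and 9 lower, with a median of 0.27 that was 0.88 without PBS OIL replicate 2 and -0.04 without PBS OIL replicate 1. Col6a3 had 2008, 1230.0 and 1682 CPM in PBS E2, against 218, 447 and 348 CPM in PBS OIL, and Col6a2 had 1377, 1307 and 1537 CPM, against 232, 424 and 314. The groups did not overlap for these type VI chains (2.28 ± 0.29 and 2.12 ± 0.21). The collagen chaperone Serpinh1 rose by 1.78 ± 0.19, whereas the type V chain Col5a2, the type XI chain Col11a1 and the basement membrane chain Col4a5 fell by 1.55 ± 0.24, 1.57 ± 0.29 and 1.20 ± 0.19. Among proteases Mmp11, a stromal metalloproteinase, had 17.9, 36.8 and 26.2 CPM in PBS E2, against 212, 167 and 132 CPM in PBS OIL, a fall of 2.67 ± 0.21.

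Vascular, contractile and secretory signals changed in both directions. Of 28 genes of vascular growth and permeability 9 were higher and 11 lower. Vegfa, which raises permeability and vessel growth, had 688, 534 and 535 CPM in PBS E2, against 181, 150.5 and 127 CPM in PBS OIL, and Nos3, the endothelial nitric oxide synthase, had 232, 115 and 167 CPM, against 25.3, 37.3 and 25. Both were separated between groups (1.94 ± 0.21 and 2.55 ± 0.24), and Adm, the vasodilator adrenomedullin, rose by 1.84 ± 0.20. The vasoconstrictor Edn1 had 8.07, 10.2 and 8.44 CPM in PBS E2, against 36.2, 36.2 and 28.8 CPM in PBS OIL, and fell by 1.92 ± 0.14, and the endothelial tight junction gene Cldn5 fell by 1.6 ± 0.23. Of 15 endothelial markers 3 were higher, 3 lower. The oxytocin receptor Oxtr had 488, 240.1 and 305 CPM in PBS E2, against 24.6, 46.1 and 32.6 CPM in PBS OIL, a rise of 3.32 ± 0.31, and the gap junction genes Gjb2 and Gja1 rose by 1.45 ± 0.38 and 0.90 ± 0.26. The contractile regulator Srf and desmin, Des, rose by 1.75 ± 0.15 and 0.94 ± 0.25, and the prostaglandin F receptor Ptgfr fell by 2.36 ± 0.23. Of 23 contractile and oxytocin signalling genes 7 were higher, 2 lower and 14 not called (39.1% called, against 61.4% of all genes tested). Of 15 smooth muscle markers 3 were higher, 0 lower and 12 not called. In prostaglandin metabolism the synthases Ptges and Ptges2 rose by 2.01 ± 0.29 and 1.80 ± 0.12, and the degrading enzyme Hpgd fell by 2.22 ± 0.25. The receptors Ptger4 and Ptger2 fell by 1.06 ± 0.15 and 1.24 ± 0.39. Of 19 prostaglandin genes 5 were higher, 5 lower and 9 not called (52.6% called). The chloride channel Cftr had 10.8, 13.8 and 10.3 CPM in PBS E2, against 17.6, 13.3 and 13.8 CPM in PBS OIL and was not called.

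Members of the paracrine pathways changed in both directions, and many were not called. Of 16 IGF system genes 2 were higher, 6 lower and 8 not called. Of 15 EGF family genes 4 were higher, 3 lower and 8 not called. Of 15 FGF genes 7 were higher, 4 lower and 4 not called. Of 20 retinoid genes 5 were higher, 6 lower and 9 not called. Of 14 hedgehog genes 2 were higher, 5 lower and 7 not called. In each of these lists but FGF the share called was below the 61.4% of all genes tested. In the IGF system Igf1 rose as given above, and the receptor Igf1r had 30.2, 50.7 and 42.4 CPM in PBS E2, against 60.1, 66.3 and 88.1 CPM in PBS OIL (-0.80 ± 0.18), and the clearance receptor Igf2r fell by 1.17 ± 0.18. Of the EGF family Hbegf and the neuregulins Nrg1 and Nrg2 rose by 2.08 ± 0.23, 1.55 ± 0.29 and 1.93 ± 0.21, as did Errfi1, a feedback inhibitor of EGF receptors (2.38 ± 0.30), while the receptor Erbb3 and the ligand Btc fell by 1.53 ± 0.19 and 1.55 ± 0.24. In FGF signalling the receptor Fgfr3 and the feedback inhibitor Spry4 rose by 2.34 ± 0.16 and 3.41 ± 0.27, and the receptor Fgfr2 and its stromal ligand Fgf10 fell by 0.75 ± 0.21 and 1.34 ± 0.29. Of 37 Wnt pathway genes 5 were higher and 16 lower, with a median of -0.46. Axin2, a feedback target of Wnt signalling, had 513, 508 and 542 CPM in PBS E2, against 198, 122 and 145 CPM in PBS OIL (1.75 ± 0.17). Rspo3, which amplifies Wnt signals, had 27.1, 79.4 and 49.4 CPM, against 198, 235 and 242 (-2.12 ± 0.30), and the secreted inhibitors Sfrp2 and Dkk3 fell by 1.91 ± 0.33 and 1.19 ± 0.17. Of 32 activin, BMP and TGF beta genes 12 were higher and 6 lower, and 8 and 9 with scaling by library totals. Fst, the antagonist follistatin, had 51.7, 21.5 and 27.8 CPM in PBS E2, against 2.72, 5.43 and 2.8 CPM in PBS OIL (3.21 ± 0.44), Fstl3 and Id1 rose by 1.94 ± 0.25 and 2.07 ± 0.23, and the inhibin subunit Inha fell by 2.05 ± 0.18. In retinoid metabolism Aldh1a2, which makes retinoic acid, had 534, 229 and 357 CPM in PBS E2, against 26.2, 42.4 and 37.4 CPM in PBS OIL (3.4 ± 0.33), and the receptor Rara rose by 1.5 ± 0.12, while Rarb fell by 1.65 ± 0.26. In the hedgehog pathway the receptor and target Ptch1 had 32.4, 84.3 and 56.4 CPM in PBS E2, against 204, 148 and 228 CPM in PBS OIL (-1.75 ± 0.28), and the ligand Dhh rose by 3.0 ± 0.34. Of 26 patterning factors 16 were lower and 4 higher (2 higher without PBS E2 replicate 2 or PBS OIL replicate 2, and 2 with scaling by library totals), and Hoxa9, Hoxd9 and Sox17 fell by 1.07 ± 0.19, 0.63 ± 0.11 and 0.84 ± 0.12.

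Many interferon-stimulated genes fell. Of 34 tested 17 were lower and 2 higher, with a median of -0.66. Rsad2, the antiviral enzyme viperin, had 1.59, 1.25 and 1.36 CPM in PBS E2, against 15.7, 20.3 and 19 CPM in PBS OIL, with no overlap, and fell by 3.69 ± 0.37. Ifit2, Xaf1 and Mx2 fell by 1.66 ± 0.24, 1.6 ± 0.21 and 1.55 ± 0.27, and Irf9, a subunit of the interferon-activated factor, rose by 0.80 ± 0.18. Without PBS OIL replicate 2, the library with the highest macrophage and neutrophil sums, 14 members were lower and 2 higher. Of 35 chemokines and receptors 7 were higher and 2 lower, and without that library 13 were higher and 1 lower. The monocyte chemokine Ccl12 had 12.8, 11.7 and 25 CPM in PBS E2, against 0.669, 1.76 and 1.02 CPM in PBS OIL (3.83 ± 0.46), and its neighbours Ccl2 and Ccl7 rose by 3.21 ± 0.56 and 3.92 ± 0.68, or 4.0 and 4.66 without PBS OIL replicate 2. The receptor Cxcr4 fell by 2.64 ± 0.31. Of 16 macrophage markers 1 was higher and 3 lower, and the lysozyme Lyz2 was at 228, 242 and 207 CPM in PBS E2, against 188, 1453 and 315 CPM in PBS OIL. Its log2 fold change of -1.53 ± 0.57 was -0.16 without PBS OIL replicate 2, and the call was lost without any of the PBS E2 libraries (-1.54, -1.58 and -1.47). None of 15 T and NK cell markers was called. The macrophage counts were 1 and 5 without PBS OIL replicate 3, 0 and 5 without PBS OIL replicate 1, 2 and 2 without PBS OIL replicate 2, and 0 and 2 without each PBS E2 library. Of 19 stromal markers 2 were higher and 7 lower (11 lower without PBS OIL replicate 1), and the ectonucleotidase Nt5e and the receptor Pdgfra fell by 1.58 ± 0.25 and 0.92 ± 0.17.

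The clock genes were counted in both directions, with 7 of 19 higher and 8 lower. Nfil3 and Bhlhe40, repressors of clock output, had 111, 52.6 and 52.8 and 296, 222 and 303 CPM in PBS E2, against 9.81, 11.6 and 11.8 and 84.9, 80.0 and 65.3 CPM in PBS OIL (2.71 ± 0.35 and 1.83 ± 0.16). Per3 had 74.1, 144 and 122 CPM in PBS E2, against 396, 367 and 478 CPM in PBS OIL (-1.87 ± 0.20), and Dbp fell by 1.17 ± 0.25. Clock genes change over the day, and the time of tissue collection is not in the labels.

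The promoters of the responding genes were searched for hormone-related letters. The palindromic estrogen response element (GGTCA and TGACC with 3 bases between them, on either strand) was in 0 of the 40 estrogen-induced genes with a sequence and in 1 of all 10677 tested genes, which speaks only of this window. The AP-1 letters TGACTCA or TGAGTCA were in 5.42% of the genes at least 2-fold higher, 5.0% of those at least 2-fold lower and 4.95% of all tested. The E-box CACGTG, read by MYC and by clock factors, was in 16.6% of the genes at least 2-fold higher, 9.07% of those at least 2-fold lower and 11.3% of all tested genes, and in 6 of 26 ribosome biogenesis genes (23.1%). Those 6 were all higher, with a median of 1.83, and so were the 20 without it, with a median of 1.73. The share was larger in some other lists, at 33.3% of 12 tRNA synthetases and 28.6% of 14 cholesterol synthesis genes.

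Set against progesterone in place of oil, the E2 libraries differed at 8919 genes (57.6%), 4516 higher under E2 (29.1%) and 4403 lower (28.4%). This comparison shares the E2 libraries with the one above. Of 22 adipocyte genes, 18 were higher in PBS E2 than in PBS P4 and 0 lower, with a median log2 difference of 3.27. The part of fat in this comparison was not tested. Pgr had 346, 271 and 414 CPM in PBS E2, against 34, 36.5 and 46.6 CPM in PBS P4, and Igf1 had 621, 395 and 590.1 CPM, against 206, 198 and 247 (3.14 ± 0.21 and 1.31 ± 0.22 on the log2 scale). Ltf, which was not called against oil, had 229.6, 579 and 321 CPM in PBS E2, against 25.6, 4.14 and 21.8 CPM in PBS P4 (4.45 ± 0.86). Areg and Ihh, induced by progesterone in the mouse uterus, went the other way (-1.79 ± 0.41 for Ihh), with Areg at 0.111, 0 and 0 CPM in PBS E2, against 7.06, 7.81 and 13.2 CPM in PBS P4. Fkbp5, a target of progesterone and glucocorticoid receptors that rose over oil, was at 39.1, 24.6 and 29.6 CPM in PBS E2, against 82, 92.2 and 75.5 CPM in PBS P4 (-1.42 ± 0.18).

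The same hormone contrast in the DOX arm uses other libraries. There 11254 genes were called (72.6%), 5442 higher (35.1%) and 5812 lower (37.5%). Of the genes higher in the PBS arm 90.7% were also higher in the DOX arm, which is 76.4% of the DOX list, and of the genes lower in the PBS arm 83.8% were also lower, 71.1% of the DOX list. The test of the difference between the arms called 3553 genes (22.9%), with the PBS value above the DOX value at 1985 (12.8%) and below it at 1568 (10.1%). Of 30 ER chaperone and unfolded protein response genes, 23 had a PBS value below the DOX value and 0 above, with a median difference of -0.83. The log2 fold change of Hyou1 was 2.12 in the PBS arm and 3.4 in the DOX arm, a difference of -1.28 ± 0.27 (adjusted p = 0.0046). Of 19 clock genes, 12 had a PBS value above the DOX value and 0 below. The log2 fold change of Dbp was -1.17 in the PBS arm and -4.47 in the DOX arm (difference 3.30 ± 0.37), and that of Per3 was -1.87 in the PBS arm and -3.82 in the DOX arm (difference 1.95 ± 0.28). Of 46 estrogen-induced genes, 1 had a PBS value above the DOX value and 10 below, with a median difference of -0.64. Lcn2 was among the 10 (-2.10), while Pgr, Greb1 and Inhbb did not pass this test (differences -0.24 ± 0.28, -0.69 ± 0.26 and -0.59 ± 0.34). Adipocyte genes were at 1404.2 to 10195.1 CPM in sum in PBS E2. Of 22 tested, 3 had a PBS value above the DOX value and 0 below, beside 12.8% and 10.1% of all genes. Their median difference was 2.34, and the part of fat in the differences between the arms was not tested.

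**Figure D5:**
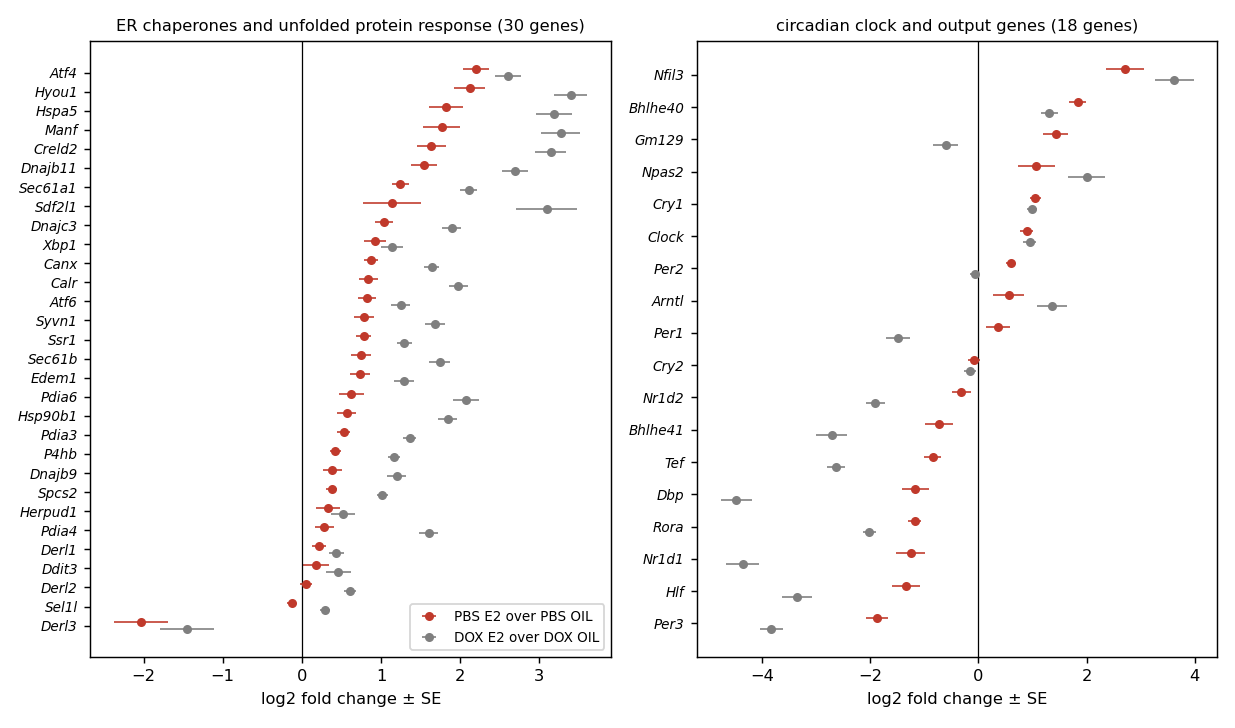
Log2 fold change of E2 over OIL with SE for 30 ER chaperone genes and 18 of the clock genes in the PBS arm and the DOX arm. The PBS value is below the DOX value for 23 ER genes and above it for 11 of the clock genes shown, by the test of the difference.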

How the data were processed

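RNA of whole uterus, extracted with Trizol and made into TruSeq total RNA libraries, was sequenced in 18 libraries of 6 groups of 3, per the labels. The authors deposited 1 table of raw counts per gene symbol (22238 symbols, of which 2904 were at 0 in all libraries). The submitters' processing notes name build GRCm38, HISAT2 2.1.0 and StringTie 1.3.4d, besides Trimmomatic 0.36, SAMtools 1.6, FastQC 0.11.5, R 3.4.4 and DESeq2 1.18.1, in no stated order. Which tool counted the reads, with which annotation and strand setting, is not given in the sources used here, so overlapping and antisense genes cannot be told apart.

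Genes were kept with filterByExpr by group (15494 genes), scaled by TMM, and tested with the quasi-likelihood F test of edgeR 4.0.16 in R 4.3.3, in 1 fit of all 6 groups (12 residual degrees of freedom) with Benjamini-Hochberg adjustment over all genes tested and a threshold of 0.05. CPM values use TMM library sizes, and each SE is the absolute log2 fold change over the root of its F statistic. Alternatives used limma 3.58.1 and DESeq2 1.42.0. The fit was first tested on simulated data with known fold changes in a small part of the genes. That setting cannot check the scaling of these data, in which most genes tested were called. No pair of libraries of these groups was a copy of another (chi-square per degree of freedom 16.6 to 69.4).

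The 57 gene lists (1308 entries, 9 not in the table, 19 matched by an older symbol) and the members described were chosen with earlier results of these data known. Lists are described by counts and medians without a list test. Genes named are the 12 largest rises and the 12 largest falls (called, groups without overlap, an annotated symbol, mean log2 CPM 1 or more), up to 4 members each way with the smallest p of each list, measured members of lists of at most 25 genes, and 16 fixed genes. Any other name is said to be chosen after its values were seen. Gene positions follow GENCODE M21 on GRCm38. A few members that the counts include are not reported here by name.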

Additional observations from a re-analysis of the deposited data

Results flagged for a closer look

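Responses that differed between the PBS and DOX arms by the test of the difference (edgeR, adjusted p under 0.05) were found at 3553 genes. Among the genes with the largest changes or fixed for description, the difference in log2 fold change, PBS arm minus DOX arm, was 2.0 for Pik3ip1 (-3.94 in the PBS arm and -5.95 in the DOX arm), 1.35 for Bmf (-3.86 and -5.21 in the same order of arms) and 3.26 for Fn3k (-3.26 and -6.52), which all fell less in the PBS arm. Esr1 differed by 0.86, with 0.22 in the PBS arm (0.41 and called without PBS E2 replicate 1) and -0.64 in the DOX arm. Lcn2 differed by -2.10, with a rise of 1.53 in the PBS arm and 3.64 in the DOX arm.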

How the results depend on the processing

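The 9519 genes called, 48.1% of them higher, became 3548 higher and 6313 lower (36.0% higher) with scaling by library totals and 3509 higher and 6445 lower (35.3% higher) with upper quartile scaling, which moved the median log2 fold change of all genes by -0.186 and -0.196. Every other fit gave 7725 to 9995 called genes, the fewest with the 2 groups alone (4129 higher, 3596 lower). Leaving out 1 of the 6 libraries gave 4262 to 4601 higher and 4288 to 4861 lower genes. The interaction with DOX called 3553 genes, 5330 with limma voom and 2414 with only the groups compared. With 1 library left out its count ran from 2427 (PBS E2 replicate 3 left out) to 4898 (PBS E2 replicate 1 left out). Under both of those scalings lower mitosis genes numbered 19 (11 with TMM), lower metalloproteinase genes 9 (4), lower prostaglandin genes 8 (5), lower stromal markers 11 (7) and higher growth-restraint genes 5 (9), and higher oxidative phosphorylation genes were 11 and 10 (18). The cause of these shifts was not tested.

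Replicate numbers did not pair the samples: deviations of same-numbered libraries correlated at -0.151, -0.282 and 0.112, and not every library correlated best with its own number. A fit with the replicate block called 4618 higher and 4910 lower genes, 9363 of them among the 9519, all in the same direction.

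Signs turned for 5 of the named genes. Ihh was -0.00 with at least 1 CPM in 3 libraries or no filter, -0.16 with library totals, -0.03 with voom, -0.01 with the block or without mitochondrial and small RNA features, and -0.18 with upper quartile scaling. Ccnd1 was -0.02 with upper quartile scaling. Leaving out 1 library gave -0.21 to 0.50 for Ltf, -0.01 to 0.58 for Ccnd1, 0.00 to 3.82 for Areg, -0.47 to 0.33 for Ihh and -2.38 to 0.01 for Ctss, the cathepsin S gene, which was 0.01 without PBS OIL replicate 2 and lost its call without PBS E2 replicate 1 or 3 (-1.85 and -1.89). Over named genes and settings 4958 values kept their call and direction, 231 lost the call, 3 gained it and 14 changed sign.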

Other observations

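Few genes of complement and coagulation were called. Of 29 tested, 5 were higher, 1 lower and 23 not called (20.7% called, against 61.4% of all genes tested), with a median log2 fold change of 0.09, and the lower count was 2 without PBS E2 replicate 3 or PBS OIL replicate 1 and 3 without PBS OIL replicate 3. The anticoagulant receptor genes Thbd and Procr had 247, 249 and 288 and 51.6, 42.9 and 48.8 CPM in PBS E2, against 114, 149 and 144 and 25.3, 33.8 and 30.4 CPM in PBS OIL, and rose by 0.95 ± 0.10 and 0.68 ± 0.14. Tissue factor, F3, the trigger of coagulation, rose by 0.52 ± 0.11 as well, and the urokinase receptor Plaur rose by 2.01 ± 0.44, or by 3.04 without PBS OIL replicate 2. Of 20 small leucine-rich proteoglycan and elastic fibre genes, 3 were higher, 5 lower and 12 not called (40.0% called), with a median of 0.07. The counts were 1 and 4 without PBS E2 replicate 3, 1 and 5 without PBS OIL replicate 1, and 6 and 3 without PBS OIL replicate 2. The matrix protein gene Fbln2 rose by 1.76 ± 0.27, whereas Prelp, a proteoglycan of basement membranes, had 112, 138 and 137 CPM in PBS E2, against 236, 288 and 300.2 CPM in PBS OIL, and the microfibril gene Mfap5 fell by 1.20 ± 0.28. The lymphatic receptor gene Lyve1 had 106, 96.9 and 153 CPM in PBS E2, against 11.7, 21.2 and 30.5 CPM in PBS OIL, and rose by 2.49 ± 0.43. The oviduct glycoprotein gene Ovgp1 and the ciliary gene Ccdc39 fell by 0.77 ± 0.23 and 1.26 ± 0.17, among 9 markers of oviduct and ciliated cells of which 0 were higher and 3 lower. Their sum was 22.9, 41.2 and 24.9 CPM in PBS E2, against 71.4, 55.8 and 59.7 CPM in PBS OIL.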
